A study of Homo sapiens with 6 samples.

Results

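Enzalutamide added to PTUPB at 10 uM was described in C4-2B MDVR cells by setting 1 library treated with both compounds against 1 library treated with PTUPB alone. These are 2 of the 6 libraries of the series. Genes were kept where the mean level over the 6 libraries was 1 FPKM or more, which left 12960 of 58735 genes; FPKM counts fragments relative to exon length and library size. The gene nearest inside this limit was CFAP20DC, with a mean of 1.00036 FPKM, and the nearest outside was ZNF790, with 0.99996 FPKM.

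C4-2B MDVR is an established human prostate cancer line, a derivative of C4-2B that was selected for growth in the presence of enzalutamide. The libraries came from cells treated for 2 days with DMSO (the vehicle), with enzalutamide at 20 uM, with PTUPB at 10 uM or 20 uM, or with PTUPB at 10 uM or 20 uM plus enzalutamide. The labels give no enzalutamide dose for the combinations. All groups share the resistant line as their background, each group is 1 library, and no label says whether the libraries came from separate cultures. With 1 library a side there is no replicate spread, so the differences below are values without a test. The intervals given are exact binomial counting intervals at 95%, cover counting error only and say nothing of the spread between cultures.

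Enzalutamide is an antiandrogen that keeps androgen target genes from being activated, many of which encode proteins that prostate epithelium secretes. PTUPB inhibits cyclooxygenase-2 and soluble epoxide hydrolase, enzymes that turn arachidonic acid and its epoxides into lipid mediators. Genes of DNA replication are switched on in late G1 by E2F factors, and genes of mitosis are switched on in G2 by complexes that hold MuvB proteins, B-MYB and FOXM1 and bind promoters at short elements known as CHR. ATF4 is a transcription factor made when amino acids run short or the endoplasmic reticulum is under stress, and it binds composite C/EBP-ATF elements.

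Promoters of genes from the groups described below are shown so that the elements named above can be read in sequence. The sequences are from RefSeq on GRCh38.p14, read 5′ to 3′ on the strand of the gene, and lie before its start in RefSeq. Of 43 androgen-induced genes in the list used here 31 were matched to a promoter, of 57 G2/M genes 49, of 41 G1/S genes 35, and of 36 ATF4 response genes 31. In the first pair capitals mark the letters GAACANNNNGTNCT, a form of the androgen response element. The KLK3 window is chr19:50854715-50854774 (+) and the KLK2 window is chr19:50873239-50873298 (+), and the 14 capital letters are the same in both.
KLK3: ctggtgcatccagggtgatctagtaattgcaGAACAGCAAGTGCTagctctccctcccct
KLK2: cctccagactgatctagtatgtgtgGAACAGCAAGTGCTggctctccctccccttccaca

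In 4 mitotic genes capitals mark TTTGAA, the core of the CHR element. The windows are chr15:59105046-59105145 (+) for CCNB2, chr16:23678789-23678888 (+) for PLK1, chr1:43358861-43358960 (+) for CDC20 and chr5:163460532-163460631 (+) for HMMR. HMMR holds 2 matches side by side, and in CCNB2 and PLK1 the match begins 29 bases before that start.
CCNB2: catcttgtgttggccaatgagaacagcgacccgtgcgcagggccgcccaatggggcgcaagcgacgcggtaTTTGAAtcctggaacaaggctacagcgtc
PLK1: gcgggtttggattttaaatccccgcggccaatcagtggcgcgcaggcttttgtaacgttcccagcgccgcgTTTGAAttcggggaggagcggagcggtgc
CDC20: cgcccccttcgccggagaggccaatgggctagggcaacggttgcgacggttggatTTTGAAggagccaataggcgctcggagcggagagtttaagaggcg
HMMR: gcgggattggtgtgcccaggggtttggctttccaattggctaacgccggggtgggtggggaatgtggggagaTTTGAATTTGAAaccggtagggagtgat

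In 2 replication genes capitals mark TTTCCCGC or TTTGGCGC on either strand, 2 forms of the E2F site. The windows are chr6:52284882-52284941 (-) for MCM3 and chr2:135876499-135876558 (-) for MCM6, which encode subunits of the replicative helicase. In 3 ATF4 targets capitals mark TGATGNAA on either strand, the composite C/EBP-ATF element. These windows are chr7:97872449-97872508 (-) for ASNS, chr19:48755424-48755483 (+) for FGF21 and chr15:40953231-40953290 (+) for CHAC1.
MCM3: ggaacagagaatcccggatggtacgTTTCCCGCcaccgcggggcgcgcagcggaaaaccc
MCM6: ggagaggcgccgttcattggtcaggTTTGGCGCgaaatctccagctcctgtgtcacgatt
ASNS: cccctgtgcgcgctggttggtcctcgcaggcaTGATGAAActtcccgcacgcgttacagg
FGF21: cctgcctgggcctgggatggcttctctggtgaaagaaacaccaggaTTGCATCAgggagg
CHAC1: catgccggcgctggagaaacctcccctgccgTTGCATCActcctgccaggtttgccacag

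Each set of letters was searched on both strands of windows of 300 bases (250 before and 50 after the start) in 27305 promoters. TTTGAA was in 33 of 49 G2/M promoters (67.3%), in 2 of 35 G1/S promoters (5.71%) and in 15.4% of all promoters. The E2F letters were in 18 of 35 G1/S promoters (51.4%), in 3 of 49 G2/M promoters (6.12%) and in 2.31% of all. TGATGNAA was in 8 of 31 ATF4 response promoters (25.8%) against 3.67% of all. GAACANNNNGTNCT was in 2 of 31 androgen-induced promoters, those of KLK2 and KLK3, against 0.267% of all. CCAAT, the NF-Y box that often stands beside CHR elements, was in 31 of 49 G2/M promoters (63.3%), 21 of 35 G1/S promoters (60%), 18 of 31 ATF4 response promoters (58.1%), 11 of 31 androgen-induced promoters (35.5%) and 35.7% of all. These are matches of letters and were not tested as binding sites. Motifs were searched 1 at a time, and matches of different motifs may overlap.

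Across the 12960 genes the addition of enzalutamide left most levels close to those under PTUPB alone. The median difference in log2(FPKM + 1) was -0.01 and 87.3% of genes lay within 0.5 of zero. The number of genes higher by log2 1 or more was 183 (1.41%), and the number lower by as much was 260 (2.01%). Among 10641 protein-coding genes with 50 or more fragments in the higher library of the pair, 31 were higher and 133 lower, so that the higher ones made 18.9% of the differences there and 41.3% over all genes. Of the 276 differences outside protein-coding genes, 124 of 150 higher and 109 of 126 lower ones rested on fewer than 50 fragments in both libraries.

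**Figure D1:**
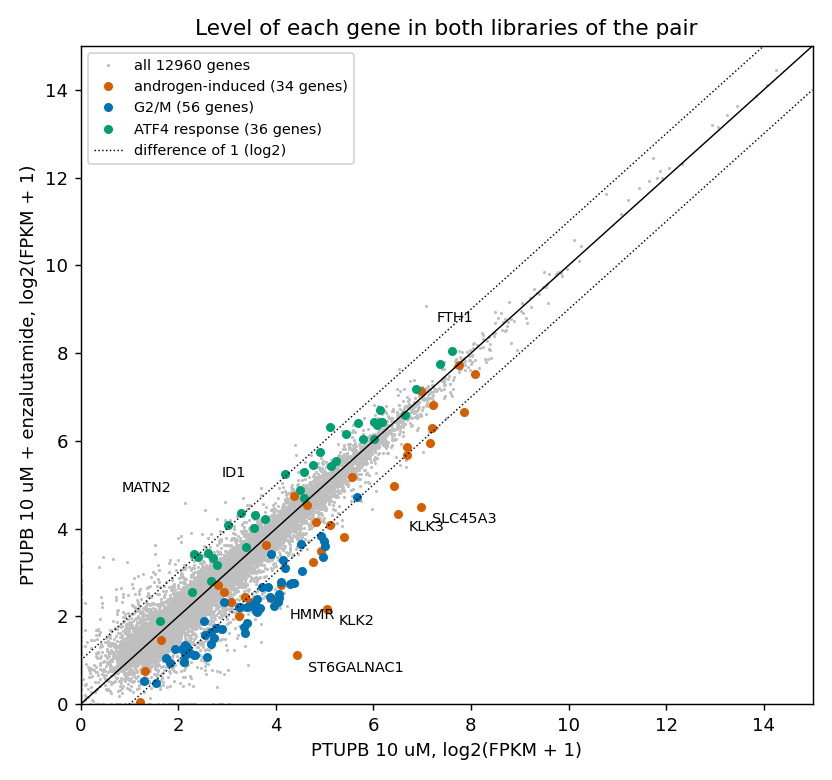
Level of each of 12960 genes under PTUPB 10 uM plus enzalutamide (vertical axis) against PTUPB 10 uM alone (horizontal axis), both as log2(FPKM + 1), with 1 library an axis. The solid line marks equal levels and the dotted lines a difference of 1; androgen-induced genes (orange) and G2/M genes (blue) lie mostly below the solid line, and ATF4 response genes (green) mostly above it.

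The libraries differed in depth and in their mitochondrial share. Recovered totals were 28848961 fragments under PTUPB 10 uM and 25627945 under the combination, within a range of 20156523 to 29450436 over the 6 libraries. The 13 mitochondrially encoded mRNAs held 9.12% and 10.4% of fragments in the pair, 9.48% under enzalutamide and 4.78% under DMSO. Luminal prostate markers were present in the pair: HOXB13 at 52.0 and 50.8 FPKM, FOXA1 at 73.6 and 76.3, KRT8 at 45.0 and 43.3 and EPCAM at 122 and 118. Of 30 markers of other cells (basal epithelium, endothelium, blood and stroma) 1 passed the level limit, the collagen gene COL1A1, at 3.11 and 3.67 FPKM. Summed over each list these markers stood at 1.08 and 0.934 FPKM (basal), 3.89 and 4.6 (stroma), 0.177 and 0.351 (blood) and 0.595 and 0.147 (endothelium), with KRT5, DCN, DES, PTPRC and PECAM1 at 0 in both libraries.

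Androgen-induced genes were lower when enzalutamide was added to PTUPB 10 uM. Of 43 genes in the list 34 passed the level limit, of which 17 were lower by log2 1 or more (2.01% of all genes), 0 were higher and 32 lay below zero. The median was -0.97, against -0.01 over all genes. The list held kallikreins, membrane proteins, factors that feed back on steroid signalling and enzymes, and each of these roles had members lower by log2 1.

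KLK3 (ENSG00000142515, chr19:50854915-50860764 on GRCh38 in GENCODE 29), which encodes prostate-specific antigen, stood at 105 FPKM under DMSO, 56.6 under enzalutamide, 89.7 under PTUPB 10 uM, 19.0 under the combination, 0.648 under PTUPB 20 uM and 0.458 under PTUPB 20 uM with enzalutamide. Among the 4 libraries without PTUPB 20 uM the combination was the lowest. KLK3 was 4.71-fold lower in the pair (interval 4.51 to 4.93; log2 difference -2.18), and -0.89 without PTUPB. KLK2, which encodes the kallikrein that cleaves the precursor of that antigen, stood at 49.1, 13.4, 32.3, 3.51, 0.232 and 0.187 FPKM in the same order. It was 9.21-fold lower in the pair (8.46 to 10.0). The 2 genes are close paralogs, so reads may be divided between them uncertainly.

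SLC45A3 (ENSG00000158715, chr1:205657851-205680459), a prostate-restricted transporter gene, stood at 128, 27.5, 125, 21.7, 4.34 and 3.93 FPKM in the order DMSO, enzalutamide, PTUPB 10 uM, combination, PTUPB 20 uM and PTUPB 20 uM with enzalutamide. Both libraries with enzalutamide at 0 and 10 uM were low, and those without it were high. The pair differed 5.78-fold (5.52 to 6.06). TMPRSS2, a membrane serine protease gene, followed 137, 72.5, 84.6, 30.5, 5.999 and 6.50 FPKM and was 2.78-fold lower in the pair (2.69 to 2.87). PMEPA1, which restrains TGF-beta and androgen signalling, differed by -1.38 in log2, and ABCC4, a transporter that exports prostanoids and cyclic nucleotides, by -1.58. TRPM8, a cold-sensing channel gene, went from 1.33 to 0.0287 FPKM on 310 and 6 fragments. STEAP1 and STEAP2, which encode membrane proteins, differed little (-0.01 and 0.16).

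ST6GALNAC1 (ENSG00000070526, chr17:76624761-76643838), a sialyltransferase gene, had the most negative difference of all 12960 genes. It stood at 22.2 FPKM under DMSO, 0.955 under enzalutamide, 20.5 under PTUPB 10 uM, 1.16 under the combination, 0.663 under PTUPB 20 uM and 0.285 under PTUPB 20 uM with enzalutamide. Its values were high in the 2 libraries that had neither enzalutamide nor PTUPB 20 uM. The pair rested on 2093 and 106 fragments and differed 17.6-fold (14.5 to 21.7). Other enzymes of the list were the fatty acid elongase gene ELOVL7 (-1.53), the acyl-CoA ligase gene ACSL3 (-1.01) and the kinase gene CAMKK2 (-1.05).

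Genes of transcription and steroid feedback were mostly lower. Of 6 tested genes 5 lay below zero and 3 were lower by log2 1 (51.2% and 2.01% of all genes), with a median of -0.85. FKBP5, a co-chaperone gene of the steroid receptor complex, stood at 35.4, 6.21, 13.9, 4.33, 3.64 and 3.73 FPKM from DMSO to PTUPB 20 uM with enzalutamide. It was already low under PTUPB 10 uM alone, and the pair differed by -1.48 against -2.33 without PTUPB. CENPN, which is counted in the list as an androgen target and also encodes a centromere protein, differed by -1.15. TSC22D3, a target that several steroid hormones share, was 0.37 higher.

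The glucocorticoid receptor gene NR3C1 was at or below 0.517 FPKM in every library. Of 12 receptor cofactor genes 0 were past log2 1 in either direction, against 1.41% of all genes higher and 2.01% lower. So few genes cannot be told from those shares. Their median was 0.04. C1orf116, an androgen target of unknown role, and the lipase gene PNLIPRP3 were the protein-coding genes lower by log2 1 in all 3 pairs: -1.43, -1.39 and -1.23 for C1orf116, and -1.37, -1.002 and -2.23 for PNLIPRP3, at 10, 0 and 20 uM PTUPB. PNLIPRP3 held 191 and 28 fragments in the pair.

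Of the androgen-repressed list 6 genes passed the level limit. The opioid receptor gene OPRK1 stood at 0.496, 3.08, 1.01, 2.68, 0.384 and 0.0760 FPKM from DMSO to PTUPB 20 uM with enzalutamide, and was 2.66-fold higher in the pair (2.22 to 3.20). UGT2B15, whose enzyme inactivates androgens, was at 9.79 FPKM under DMSO and at 22.4, 27.8 and 30.1 under enzalutamide, PTUPB 10 uM and the combination, so its pair difference was 0.11. The chemokine receptor gene ACKR3 differed by -0.56. The list median was 0.21 in the pair and 0.89 without PTUPB, and UGT2B reads may be shared within that family.

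Mitotic genes formed the list with the lowest median, -1.19. Of 57 genes 56 passed the level limit, and all 56 lay below zero (against 51.2% of all genes). Of these, 42 were lower by log2 1 or more, against 2.01% of all genes. The same 56 genes had a median of -0.32 with enzalutamide and no PTUPB, where 0 were past log2 1 (1.37% of all genes were lower by that much and 1.31% higher). PTUPB 10 uM alone against DMSO gave -0.36. In bulk RNA, fewer cells in G2 or mitosis and less mitotic RNA per cell cannot be told apart.

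CCNB1 (ENSG00000134057, chr5:69167010-69178245), the cyclin that drives entry into mitosis, stood at 43.1, 34.4, 31.1, 11.1, 5.31 and 12.5 FPKM under DMSO, enzalutamide, PTUPB 10 uM, the combination, PTUPB 20 uM and PTUPB 20 uM with enzalutamide. Among the first 4 the combination stood apart, with both single agents closer to DMSO. The pair differed 2.79-fold (2.57 to 3.04). CCNB2, a second B-type cyclin gene, stood at 22.0, 16.1, 15.6, 4.39, 1.59 and 5.56 FPKM, 3.56-fold lower in the pair (3.15 to 4.03). CDK1, the kinase both cyclins bind, was 1.94-fold lower (1.85 to 2.03), from 49.4 to 25.4 FPKM. This role of cyclins, kinases and phosphatases had 13 genes with a median of -1.40, and PLK1 at -1.49, AURKA at -1.21 and AURKB at -1.26 encode its mitotic kinases.

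MKI67 (ENSG00000148773, chr10:128096659-128126385), the proliferation marker gene, stood at 12.3, 8.27, 11.2, 3.30, 0.932 and 0.813 FPKM in the same order of libraries and was 3.41-fold lower in the pair (3.19 to 3.65). Spindle genes were lower too: KIF20A, a kinesin gene of cytokinesis, went from 9.34 to 2.09 FPKM (4.46-fold, 3.86 to 5.18), DLGAP5, a microtubule-binding factor gene, from 14.7 to 3.71 (3.96-fold) and HMMR, a spindle assembly factor gene, from 15.6 to 3.99 (3.91-fold). CDC20, which activates the anaphase-promoting complex, went from 30.2 to 9.25 FPKM (3.27-fold, 2.96 to 3.62). BIRC5, a subunit of the chromosomal passenger complex also known as survivin, went from 19.6 to 5.79 FPKM (3.38-fold, 3.08 to 3.71). Medians were -1.11 for 16 kinesin and spindle genes, -1.09 for 8 checkpoint and ubiquitin ligase genes, -1.23 for 11 centromere and kinetochore genes and -1.14 for 8 chromatin and proliferation genes. The member nearest zero was BUB3, a checkpoint gene, at -0.49.

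**Figure D2:**
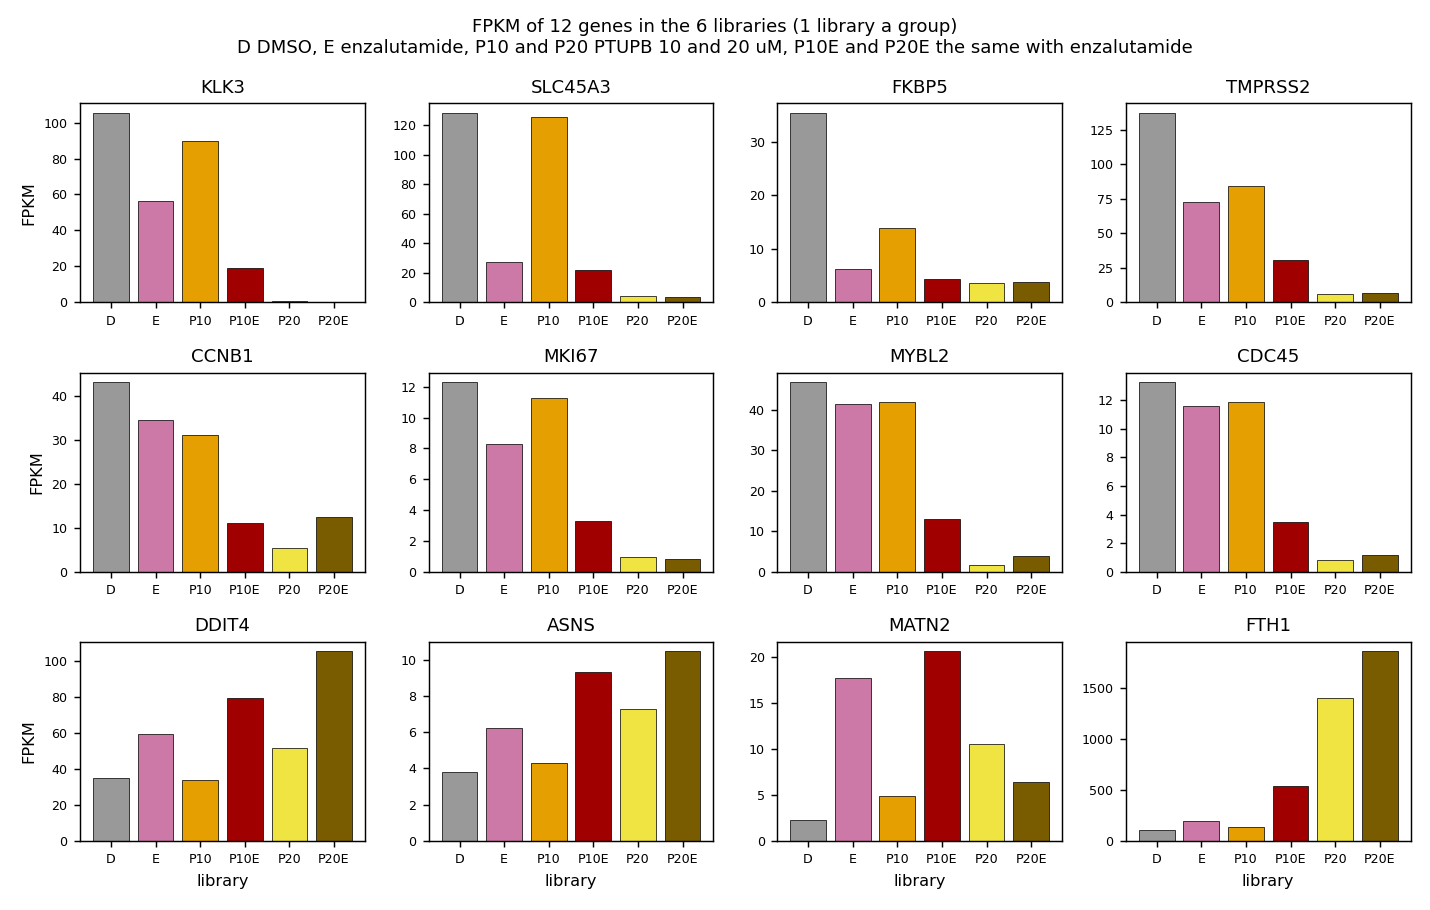
FPKM of 12 genes in the 6 libraries, 1 library a bar, with no error bar because each group has 1 library. KLK3, SLC45A3, FKBP5 and TMPRSS2 are androgen-induced, CCNB1, MKI67 and MYBL2 belong to mitosis, CDC45 to replication and DDIT4 and ASNS to the ATF4 response. CCNB1, MKI67, MYBL2 and CDC45 have short bars for the combination at 10 uM (11.1, 3.30, 13.03 and 3.50 FPKM). Their bars are taller for enzalutamide alone and PTUPB 10 uM alone, and shorter for PTUPB 20 uM alone (5.31, 0.932, 1.54 and 0.833 FPKM).

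Replication genes were lower by a smaller amount. All 41 G1/S genes passed the level limit and lay below zero (51.2% of all genes did), 7 were lower by log2 1 or more (2.01% of all), and the median was -0.83 (-0.26 with enzalutamide and no PTUPB). With 1 replaced by 0.5 or 0.1 as the value added to FPKM the count of 7 became 12 and 19, since many of these genes have low FPKM. CDC45, a helicase cofactor gene, stood at 13.3, 11.6, 11.9, 3.50, 0.833 and 1.19 FPKM from DMSO to PTUPB 20 uM with enzalutamide and was 3.40-fold lower in the pair (2.96 to 3.90). GINS1, which encodes a subunit of the same helicase, went from 15.9 to 5.65 FPKM (2.82-fold) and POLE2, a polymerase epsilon subunit gene, from 6.29 to 2.15 (2.92-fold).

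Within the G1/S list the roles differed in size. Medians were -0.86 for 16 licensing and helicase genes, -0.92 for 9 polymerase and clamp genes, -0.99 for 5 nucleotide synthesis genes, -0.41 for 5 chromatin assembly genes and -0.63 for 6 E2F factor and cyclin genes. The E-type cyclin genes CCNE1 and CCNE2, which act at the G1/S border, both differed by -0.09. MCM3 and MCM6, whose promoters are shown above, differed by -0.71 and -0.46. PCNA, the sliding clamp gene, went from 65.2 to 37.6 FPKM (1.74-fold, 1.63 to 1.85), and its value was 76.3 under DMSO and 73.4 under enzalutamide. In the G1/S list the 18 tested genes with E2F letters had a median of -0.83 and the 17 without them -0.80. In the G2/M list the 32 tested genes with TTTGAA and the 16 without it had -1.170 and -1.165.

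**Figure D3:**
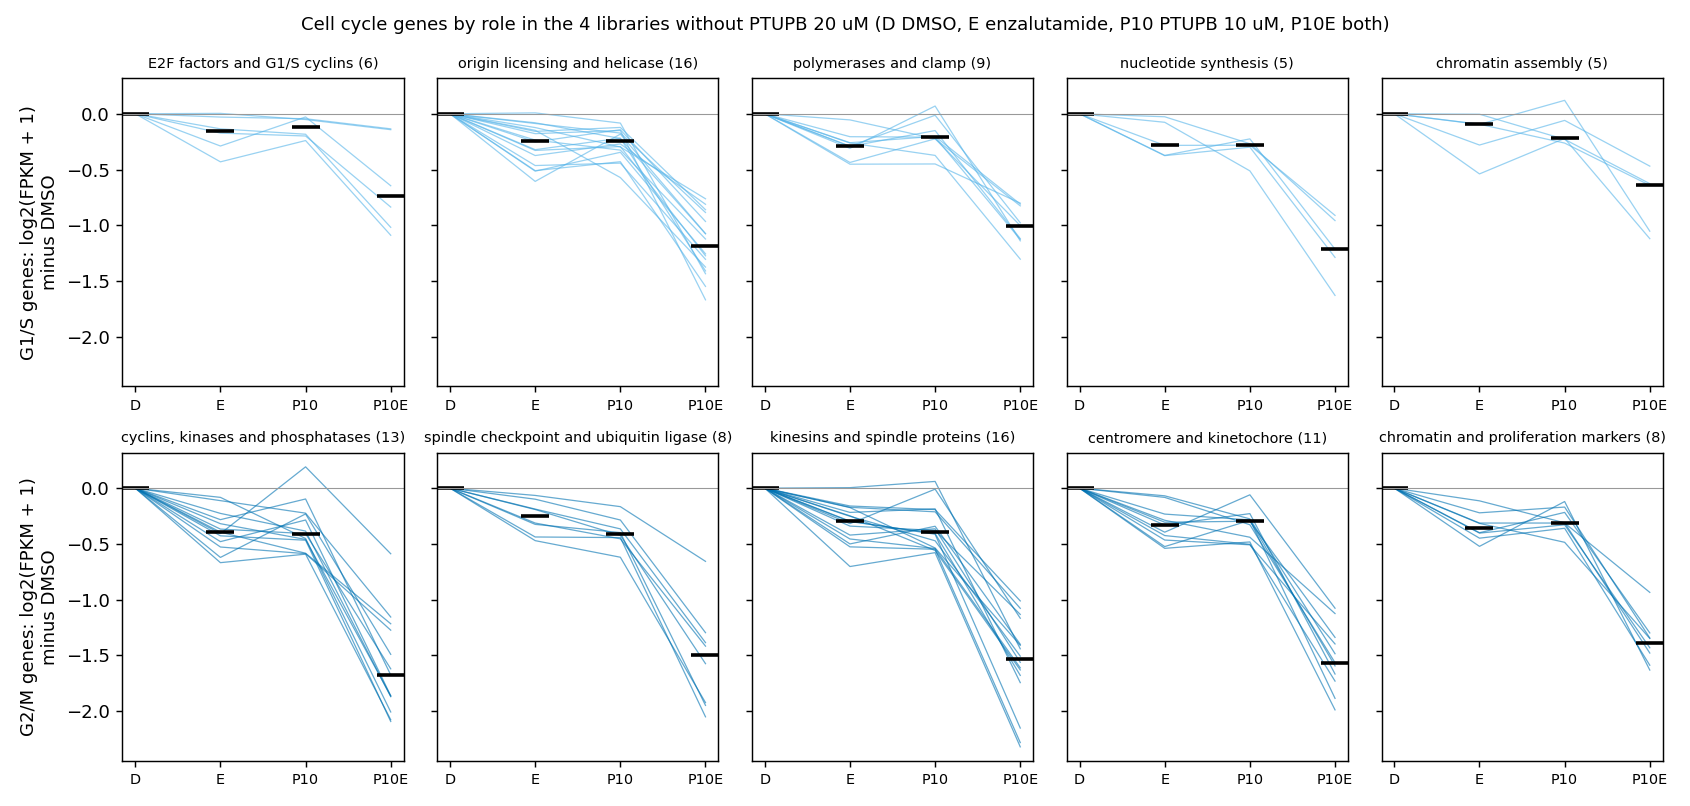
Log2(FPKM + 1) of each G1/S gene (upper row) and G2/M gene (lower row) minus its value under DMSO, in the 4 libraries without PTUPB 20 uM; a line joins the values of 1 gene, and black bars are medians of the role, with the number of genes in each title. The medians under enzalutamide and under PTUPB 10 uM alone stay within 0.5 of DMSO, and those of the combination lie lower in all 10 panels.

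Regulators of these programmes were lower to unequal degrees. MYBL2 (ENSG00000101057, chr20:43667019-43716496), which encodes B-MYB, stood at 46.8, 41.5, 41.9, 13.03, 1.54 and 3.81 FPKM in the order of libraries used above, 3.22-fold lower in the pair (2.99 to 3.46). FOXM1 went from 10.48 to 4.80 FPKM (2.18-fold, 1.99 to 2.40) and E2F1 from 18.3 to 9.83 (1.86-fold, 1.70 to 2.05). The 11 tested subunits of the MuvB and DREAM complexes had a median of -0.20, from RBL1 at -0.73 to RBL2 at 0.19. CDKN1A, which encodes the cyclin-dependent kinase inhibitor p21, stood at 32.8, 48.4, 25.2, 50.4, 427 and 469 FPKM, 2.00-fold higher in the pair (1.90 to 2.10). CCND1 (-0.09) and CDKN1B (-0.15) differed little.

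DNA repair genes that are used in S phase lay on the same side. Of 21 tested genes of homologous recombination and the Fanconi pathway 20 were below zero and 3 were lower by log2 1 (51.2% and 2.01% of all genes), with a median of -0.52. Among the 3 were XRCC2, a strand-exchange factor gene (-1.42), and the exonuclease gene EXO1 (-1.15). The checkpoint kinase genes ATM and ATR differed by 0.04 and -0.03. Of the 133 lower protein-coding genes with 50 or more fragments, 53 were in the G1/S, G2/M, regulator or repair lists, 17 were androgen-induced and 61 were in no list. Those lists held 41, 56, 16 and 21 tested genes, some of them shared, and the androgen-induced list held 34. The share in no list among all 10641 such genes was not counted.

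The ATF4 response was higher in the pair. All 36 genes passed the level limit, 35 lay above zero, 5 were higher by log2 1 or more (1.41% of all genes) and 0 were lower, with a median of 0.43. The 15 factors and stress effectors had a median of 0.72 and held all 5, and the 21 genes of amino acid supply had 0.31. With enzalutamide and no PTUPB the list had a median of 0.41, and 1 gene was higher by log2 1 (1.31% of all genes). Both roles had a median of 0.41 there. DDIT4 (ENSG00000168209, chr10:72273920-72276036), which encodes an inhibitor of mTORC1, stood at 35.2, 59.6, 33.8, 79.2, 51.8 and 105 FPKM from DMSO to PTUPB 20 uM with enzalutamide. Each library with enzalutamide was above its partner without it. The pair differed 2.35-fold (2.23 to 2.47).

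SESN2, a leucine sensor gene, stood at 7.99, 8.75, 8.74, 19.6, 40.6 and 61.3 FPKM. Enzalutamide alone and PTUPB 10 uM alone were near DMSO, and the pair was 2.25-fold apart (2.07 to 2.44). FGF21, a stress hormone gene, went from 4.01 to 9.81 FPKM (2.44-fold, 2.02 to 2.97), CHAC1, which degrades glutathione, from 7.13 to 16.03 (2.25-fold, 2.00 to 2.53) and CEBPB, a transcription factor gene, from 17.3 to 37.0 (2.14-fold, 1.98 to 2.31). ASNS, the asparagine synthetase gene, stood at 3.81, 6.25, 4.31, 9.30, 7.31 and 10.47 FPKM and differed by 0.96. ATF4 mRNA itself differed by 0.44. ATF3 (0.85) and DDIT3 (0.70), stress factors downstream of ATF4, were below the log2 1 mark.

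Endoplasmic reticulum chaperone genes lay near the median of all genes. Of 24 genes of chaperones and the unfolded protein response 15 lay below zero, against 51.2% of all genes, and the median was -0.05. In this list 0 genes were past log2 1, against 1.41% of all genes higher and 2.01% lower. HSPA5, the main chaperone gene, went from 440 to 574 FPKM (0.38), while CALR, the calreticulin gene, went from 563 to 408 (-0.46). The same list had a median of 0.33 with enzalutamide and no PTUPB.

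**Figure D4:**
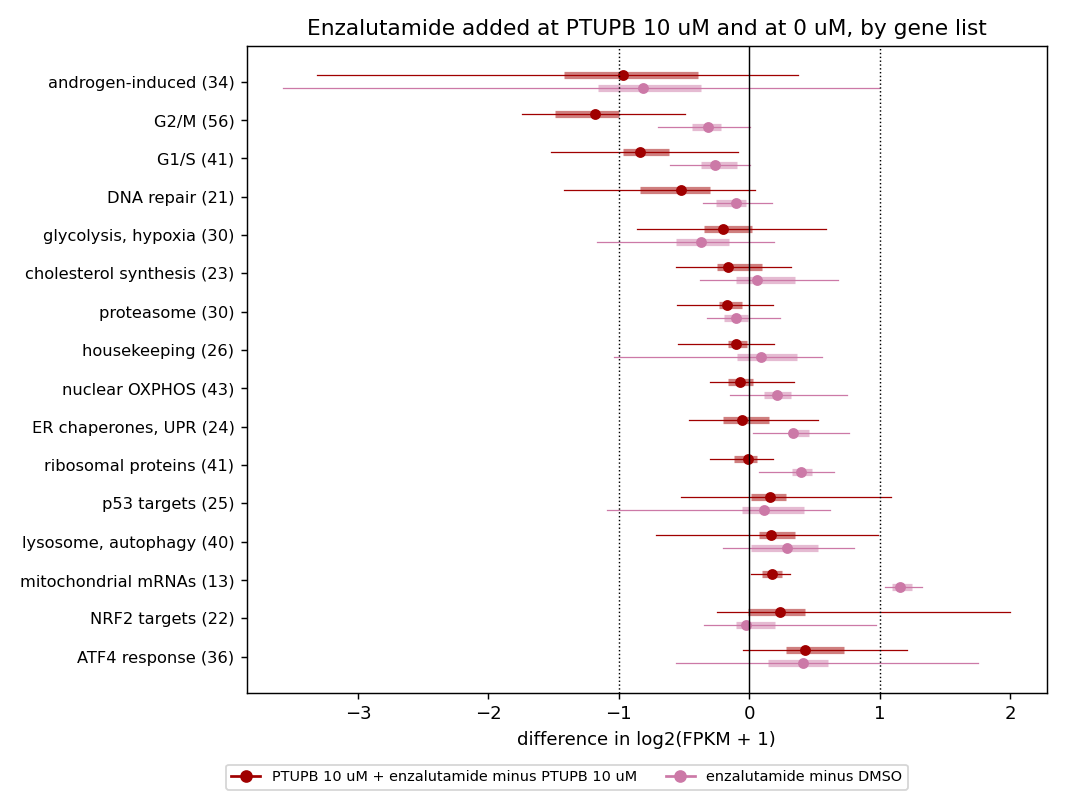
Difference in log2(FPKM + 1) by gene list for enzalutamide added at PTUPB 10 uM (red) and at 0 uM (pink), with the number of tested genes after each name. Points are medians over genes, thick bars the range between the quartiles and thin lines their range, none of which is a replicate error; G2/M lies at -1.19 and -0.32, mitochondrial mRNAs at 0.17 and 1.16.

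Other lists had medians near that of all genes. Medians were -0.10 for 26 housekeeping genes, -0.01 for 41 ribosomal protein genes, -0.07 for 43 nuclear genes of oxidative phosphorylation, -0.17 for 30 proteasome genes, -0.16 for 23 cholesterol synthesis genes and -0.20 for 30 glycolysis and hypoxia genes. In the same order 20 of 26, 23 of 41, 26 of 43, 27 of 30, 15 of 23 and 22 of 30 lay below zero, against 51.2% of all genes. In these 6 lists 0 genes were past log2 1, against 1.41% of all genes higher and 2.01% lower. Reads of mitochondrial mRNAs may be shared with nuclear copies. The 13 mitochondrial mRNAs had a median of 0.17 (1.16 without PTUPB), with MT-CO1, a cytochrome oxidase subunit gene, at 9808, 23260, 19613, 22549, 8108 and 8302 FPKM. GAPDH differed by -0.18, ACTB by -0.08 and MYC, a growth regulator gene, by -0.23. The targets of PTUPB showed no difference past log2 1: EPHX2, the soluble epoxide hydrolase gene, went from 8.78 to 7.97 FPKM, and PTGS2, the cyclooxygenase-2 gene, was listed at 0 in 5 libraries and at 0.0144 FPKM (2 fragments) in the combination.

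FTH1 (ENSG00000167996, chr11:61959718-61967660), the ferritin heavy chain gene, had the largest positive difference among protein-coding genes with 50 or more fragments. It stood at 110, 196, 134, 537, 1398 and 1861 FPKM from DMSO to PTUPB 20 uM with enzalutamide and was 4.02-fold higher in the pair (3.92 to 4.12). Reads of FTH1 may be shared with its many processed copies. FTL, the ferritin light chain gene, differed by 0.23. Of 22 NRF2 targets 1, FTH1 itself, was past log2 1, against 1.41% of all genes higher and 2.01% lower. The list median was 0.24, and 6 of 22 lay below zero, against 51.2% of all genes.

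MATN2, a matrix adaptor gene, stood at 2.30, 17.8, 4.86, 20.6, 10.49 and 6.41 FPKM and was 4.25-fold higher in the pair (3.96 to 4.56). Both enzalutamide libraries at 0 and 10 uM were higher than their partners, and the one at 20 uM was not. IGFBP3, which binds insulin-like growth factors, went from 3.18 to 11.9 FPKM (3.73-fold, 3.35 to 4.17). ID1, an inhibitor of basic helix-loop-helix factors, stood at 5.10, 7.44, 6.75, 23.4, 19.8 and 5.08 FPKM, so the combination and PTUPB 20 uM alone were the high libraries. Its pair rested on 246 and 761 fragments and differed 3.46-fold (2.99 to 4.01). The other 8 genes with the largest positive differences were CD55 (1.45), LCN2 (1.40), LRRC10B (1.37), PCSK1N (1.26), LAMP3 (1.21), DDIT4 (1.21), KRT75 (1.20) and TMEM59L (1.15).

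At the opposite end, beside the androgen targets and mitotic genes, the 12 most negative differences held MCCC2, a leucine catabolism gene (20.8 to 5.53 FPKM, 3.76-fold), FAM83D, a spindle protein gene (16.98 to 4.79), AGR2, a secretory disulfide isomerase gene (8.88 to 2.20), and TM4SF1, a membrane protein gene (4.51 to 0.784). MCCC2, AGR2 and TM4SF1 were also lower by log2 1 without PTUPB (-1.47, -1.36 and -1.19), and FAM83D was at -0.60.

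Enzalutamide at 0 uM PTUPB gives a pair that shares no library with the pair at 10 uM, so both could be set side by side, although their difference was not tested. Androgen-induced genes had medians of -0.97 at 10 uM and -0.81 at 0 uM, with 17 and 11 of 34 lower by log2 1. The median over genes of the pair at 10 uM minus the pair at 0 uM was -0.24 for this list, and 0.09 after rescaling to TPM, a scale on which the median of all genes in the pair at 0 uM was -0.41. G2/M genes had a median of -0.83 on that measure, and all 56 were below zero (52.1% of all genes were). Of the 56, 18 were at -1 or less, as were 278 of all 12960 genes. For G1/S genes it was -0.58 with 40 of 41 below zero, and for the ATF4 response 0.14. As TPM these last 2 medians were -0.27 and 0.52.

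The genes behind these medians differed in kind. Of the 133 lower protein-coding genes 123 were also below zero at 0 uM, and 21 were past log2 1 there, which is 21 of the 36 genes lower by that much at 0 uM. Over all 10641 such genes 50.4% were below zero at 0 uM and 0.338% were lower by log2 1. The 5 lower genes with the most negative change from the pair at 0 uM were H2AC13 (-1.47 against 0.88, on 101 and 24 fragments), CKS2 (-1.51 against 0.21), NMU (-1.36 against 0.32), OIP5 (-1.36 against 0.30) and ANLN (-1.50 against 0.01). CKS2 encodes a partner of cyclin-dependent kinases, OIP5 a centromere factor, ANLN a cytokinesis scaffold and NMU a neuropeptide. The 5 higher genes with the most positive change were ATP6V0C (1.04 against -0.96), ID1 (1.65 against 0.47), FTH1 (2.00 against 0.82), KRT75 (1.20 against 0.19) and HSD17B14 (1.10 against 0.09). H2AC13 and ATP6V0C have near-identical copies elsewhere, so their reads are uncertain.

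All 56 G2/M and all 41 G1/S genes were lowest in the combination among the 4 libraries without PTUPB 20 uM, against 32.5% of all genes. Of the androgen-induced genes 24 of 34 were lowest there, and 32 of 36 ATF4 response genes were highest there, against 25.9% of all. Being lowest there was not particular to these lists. It held for 26 of 30 proteasome genes and 16 of 26 housekeeping genes, though for only 8 of 41 ribosomal protein genes. Median levels of the G2/M list in log2(FPKM + 1) were 3.71 under DMSO, 3.31 under enzalutamide, 3.41 under PTUPB 10 uM and 2.20 under the combination, then 0.71 and 1.29 at PTUPB 20 uM without and with enzalutamide. In the pair at 20 uM the list had a median difference of 0.33 and the androgen-induced list -0.15, from low levels.

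**Figure D5:**
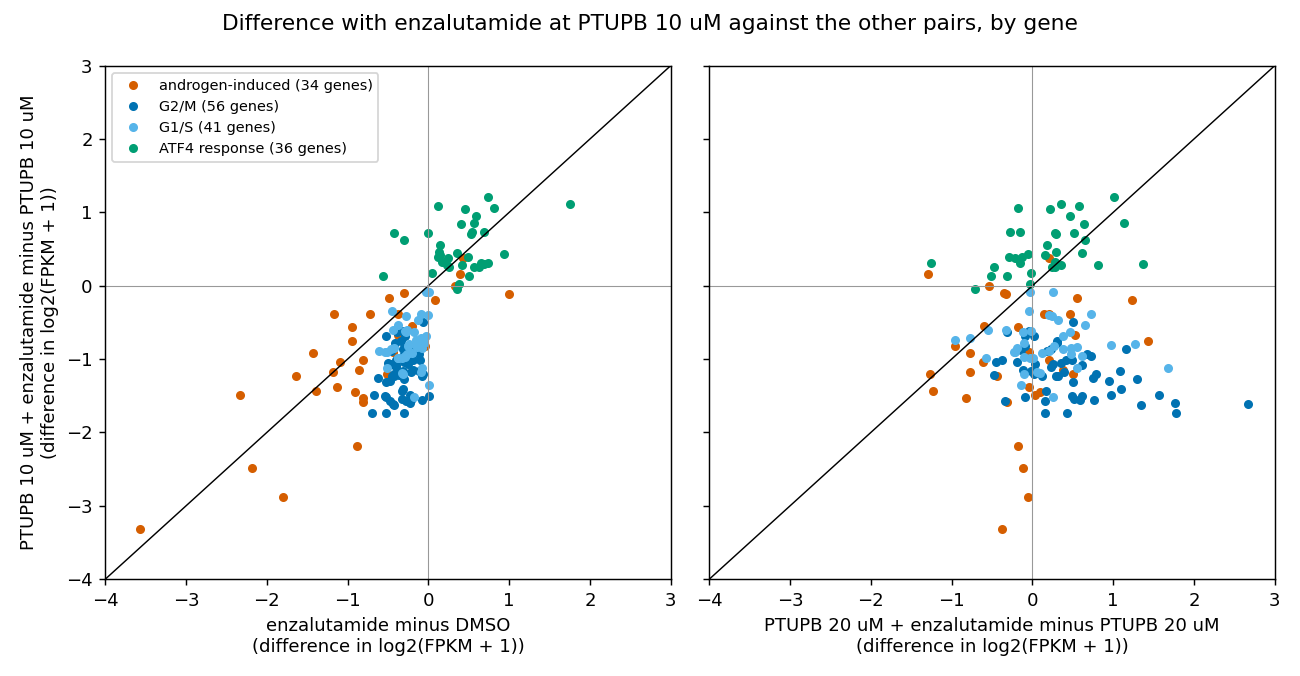
Difference with enzalutamide at PTUPB 10 uM (vertical axis) against the difference at 0 uM (left) and at 20 uM (right), each in log2(FPKM + 1), for genes of 4 lists; the pairs share no library and the solid line marks equal differences. On the left G2/M genes (dark blue) lie below the line in all 56 cases, and androgen-induced genes (orange) lie on both sides of it.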

How the data were processed

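RNA-seq of 6 C4-2B MDVR libraries was used, 1 library in each of 6 groups, mapped to groups by their titles and treatment labels. The authors deposited 1 table of FPKM per gene; HISAT and Cufflinks are named per the submitters' processing notes, without versions, and the genome build and use of strand are not given in the sources used here. Values of overlapping, antisense and paralogous genes are therefore uncertain. Values multiplied by exon length (GENCODE release 29, to which all 58735 identifiers matched) fell on whole fragments within 0.05, for 100% of values checked in each library, which gave depth and counting intervals. The totals of 20156523 to 29450436 fragments limit the precision of low genes, hence the minimum of 50 fragments for naming.

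Differences are of log2(FPKM + 1), over the 12960 genes whose mean FPKM over the 6 libraries reached 1, and are counted at log2 1. No p-value was computed. Fold changes are ratios of FPKM without the added 1, given where both libraries held 4 or more fragments. The 40 gene lists (1034 entries), their roles, the comparisons and the members were chosen with earlier results of these data known. Beyond the level limit, genes were named by rule: the 12 largest differences per direction among protein-coding genes with 50 or more fragments, up to 4 per list, a fixed set of receptors, targets, cell cycle, stress and reference genes, protein-coding genes past log2 1 with 1 sign in all 3 pairs, and 5 per direction for the change from the pair at 0 uM. Other list members named, such as PLK1, CDC20, ASNS, PCNA and ABCC4, were chosen after their values were seen. The counts over all genes, the list medians and list counts were recomputed with 0.1 or 0.5 added, as TPM, by total fragments, by median of ratios and with other filters. Part of the named genes were recomputed singly, without the other filters. The calculation was tested on simulated data. Python 3.11.15, numpy 2.4.6, pandas 2.3.3, scipy 1.17.1 and matplotlib 3.10.9 were used. Some named items are not reported here.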

Additional observations from a re-analysis of the deposited data

Results flagged for a closer look

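There were 12 named genes that differed by log2 1 or more in the pair at PTUPB 10 uM and by log2 1 or more in the opposite direction in the pair at 20 uM, which shares no library with it. The difference between the pairs was not tested, each pair has 1 library a side, and several of these genes had low levels at 20 uM without enzalutamide. Lower at 10 uM and higher at 20 uM were CDC20 (-1.61 and 2.67, a difference of -4.28 between pairs), HMMR (-1.73 and 1.78, -3.52), BIRC5 (-1.60 and 1.76, -3.36), CCNB2 (-1.62 and 1.34, -2.97), CKS2 (-1.51 and 1.29, -2.81), NMU (-1.36 and 1.28, -2.65), CCNB1 (-1.40 and 1.09, -2.50) and CKS1B (-1.03 and 1.13, -2.16). Of these, HMMR was at 0.269, BIRC5 at 0.466 and NMU at 0.261 FPKM under PTUPB 20 uM alone, while CKS2 was at 9.60 and CCNB1 at 5.31.

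Higher at 10 uM and lower at 20 uM were ID1 (1.65 and -1.78, a difference of 3.43), IGFBP3 (1.62 and -1.08, 2.71), LCN2 (1.40 and -1.14, 2.54) and LAMP3 (1.21 and -1.15, 2.36). LCN2, an iron-binding secreted protein gene, was at 4.62 and 13.8 FPKM in the pair at 10 uM and at 78.3 and 35.0 at 20 uM. LAMP3, a lysosomal membrane protein gene, was at 1.08 and 3.83 FPKM and at 27.8 and 12. ID1 was at 6.75 and 23.4 FPKM and then at 19.8 and 5.08.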

How the results depend on the processing

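No paired analysis was possible because each group has 1 library, and for the same reason no replicate was left out. The count of genes higher by log2 1, 183, became 410 with 0.1 added to FPKM, 280 with 0.5, 312 as TPM, 460 with no filter, 46 with mean FPKM of 5 or more and 31 for protein-coding genes with 50 fragments; the last of these, like the filter over the 4 libraries without PTUPB 20 uM, was chosen after seeing the data. The count of lower genes, 260, became 444, 408, 506, 100 and 133 with 0.1 added, as TPM, with no filter, with mean FPKM of 5 and for those protein-coding genes. The number of G1/S genes lower by log2 1, 7, became 19 with 0.1 added, 12 with 0.5, 19 as TPM and 4 with mean FPKM of 5. FPKM summed to 327486 and 337988 in the pair, so TPM are larger values and the added 1 weighs less in them.

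The list medians of the pair kept their sign and moved by less than 0.3 under every alternative run for androgen-induced, G2/M, G1/S and ATF4 response genes. G2/M ranged from -1.45 to -1.17 and androgen-induced genes from -1.06 to -0.79. The comparison with the pair at 0 uM moved more: for androgen-induced genes the median difference between pairs, -0.24, was 0.085 as TPM, -0.056 by total fragments and -0.05 with no filter. For ATF4 response genes 0.14 became 0.52 as TPM and 0.33 by total fragments, and for G1/S genes -0.58 became -0.27 as TPM. These scales moved the median of all genes in the pair at 0 uM to -0.41 (TPM) and -0.16 (total fragments), and in the pair at 10 uM to -0.05 and 0.00. For G2/M genes the median difference between pairs, -0.83, kept its sign and ranged from -1.06 to -0.625. The androgen-repressed median, 0.21, became -0.003 with no filter. Of the 44 named genes past log2 1 that were recomputed singly, 43 or 44 stayed past it on each scale. ACSL3 did not by total fragments. Other named genes past log2 1, among them BIRC5, CDC45, SESN2 and FGF21, were not recomputed singly.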

Other observations

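Genes in none of the lists included further groups of known function that were named after their values were seen. Among higher genes, ID3, like ID1 an inhibitor of basic helix-loop-helix factors, went from 8.91 to 19.4 FPKM in the pair (2.18-fold, interval 1.95 to 2.44), and the family member ID2 from 4.26 to 7.69 (1.80-fold, 1.55 to 2.10). ID4 was at 0.794 and 1.34 FPKM. With enzalutamide and no PTUPB the log2 differences were 0.47 for ID1, 0.45 for ID2, 0.59 for ID3 and 0.27 for ID4. BGN, a matrix proteoglycan gene, stood at 2.71 FPKM under DMSO, 14.98 under enzalutamide, 11.96 under PTUPB 10 uM and 26.3 under the combination, and SOX9, a transcription factor gene, at 5.53, 11.8, 3.34 and 8.08.

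Among lower genes outside the lists, MBOAT2, a phospholipid acyltransferase gene, went from 39.8 to 15.6 FPKM (2.54-fold, 2.45 to 2.64), SMS, the spermine synthase gene, from 100.2 to 46.1 (2.18-fold, 2.08 to 2.28), STK39, a kinase gene of ion transport, from 39.7 to 17.4 (2.28-fold, 2.16 to 2.40) and MYBPC1, a myosin-binding protein gene, from 3.39 to 0.769 (4.41-fold, 3.70 to 5.29). Without PTUPB their differences were -1.29 for MBOAT2, -1.37 for SMS, -1.35 for STK39 and -1.75 for MYBPC1. In CKS1B, which like CKS2 encodes a partner of cyclin-dependent kinases, the pair differed by -1.03 and the pair without PTUPB by 0.23.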
